A study of Mus musculus with 2 samples.

Results

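F-box proteins are the substrate receptors of SCF ubiquitin ligases, and their genes were compared here between oocytes of young and of aged mice. Members were the genes of the deposited table whose mouse symbol has the stem Fbxo, Fbxw or Fbxl followed by a number, without Fbxo5 and Fbxo43, the Emi genes, which inhibit the anaphase-promoting complex. There were 73 members among the 36227 genes of the table, 34 Fbxo, 20 Fbxw and 19 Fbxl. The rule also takes in Fbxl12os, a transcript opposite to Fbxl12 that encodes no F-box protein. The study collected naturally ovulated eggs at the MII stage from ICR females. The young library (control) was made from 6 females aged 3 months and the aged library from 6 females aged 12 months. Each holds 18 oocytes lysed in 1 tube, 3 per female, and the labels name no transgene and no treatment other than age. With 1 library per age there is no spread between animals, no test was run and no p-value is given.

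An SCF ligase is built on the cullin Cul1, which holds the RING protein Rbx1 at one end and the adaptor Skp1 at the other. Skp1 binds the F-box of a receptor, and the rest of that receptor binds the substrate, so the receptor decides what the ligase marks for the proteasome. Fbxw proteins bind substrates through WD40 repeats, Fbxl proteins through leucine-rich repeats, and Fbxo proteins through other domains. A fully grown oocyte is transcriptionally silent, and it changes its protein content through stored mRNA and protein turnover. The mouse genome holds a tandem array of Fbxw genes on chromosome 9 that is known for expression in oocytes.

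The libraries held 19475110 counts (young) and 18597656 counts (aged). Levels are given as CPM, the counts of a gene per 1000000 counts of its library. A count of 0 allows up to 0.154 CPM in the young and 0.161 CPM in the aged library. Ratios are aged over young after scaling to these totals, and their 95% exact (Clopper-Pearson) intervals cover counting error only, since amplified reads without molecular identifiers are not separate molecules. A gene whose mean over both libraries reached 20 counts (the floor) was called higher or lower when its levels lay 2-fold or more apart. All 12 oocyte markers examined were present at 20 counts or more in both libraries, among them Gdf9 with 97099 and 42795 CPM. Of 16 cumulus and granulosa markers, 9 had a count, with summed levels of 24.9 CPM (young) and 57.9 CPM (aged). Most of that was Cyp19a1, with 436 and 1056 counts, while the cumulus genes Has2, Ptx3, Ptgs2 and Tnfaip6 had 0 to 2 counts in each library. The rest went both ways, with Cyp11a1 at 27 and 1 counts, Inha at 14 and 0, Vcan at 4 and 0 and Fshr at 0 and 16. Of the 6 stromal and endothelial markers 5 had a count (20.7 and 39.7 CPM, mostly Pecam1, with 381 and 723 counts), and of the 4 blood markers 2 had one (4.36 and 4.52 CPM). The part of other cells in the results was not tested. In pooled material, fewer cells of a type and less RNA per cell cannot be told apart.

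Of the 73 members, 68 had a count and 54 reached the floor of 20 counts. Fbxo2, Fbxo6, Fbxo24, Fbxo44 and Fbxo48 had no count in either library. Together the members took 0.548% of the young library (95% exact binomial interval 0.545% to 0.552%) and 0.852% of the aged library (0.848% to 0.856%). The summed level was thus 1.55-fold higher in the aged library. The chromosome 9 array held 11 members and accounted for this difference in the sum. It had 2117 CPM in the young and 5538 CPM in the aged library, 2.62-fold higher, while the sum of the other members was 3367 and 2983 CPM. Of all member counts, 38.6% (young) and 65.0% (aged) fell to the array.

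The genes of the array are shown first because all 11 had ratios above 1 and they are near copies of each other. In the GENCODE annotation 14 protein-coding genes lie between the outermost Fbxw genes of this region, all 14 are Fbxw genes, and all 14 are on the minus strand. Of these, Fbxw14, Fbxw25 and Fbxw27 were not analysed here. Over 55 pairs of the 11 members, transcript identity ranged from 70.3% to 88.8% with a median of 82.6%. The promoter table of RefSeq (build GRCm38.p6) held 55 of the 73 members and 9 of the 11 array genes. Over 36 pairs of these 9 the 250 bases before the start site were 82.9% to 96.4% identical, with a median of 90.2%. The promoters of the most abundant member, of the 2 members with the highest ratio and of Fbxw18 are given below on the minus strand, 5′ to 3′, ending at the base before the start site. Capitals mark E-boxes, the CANNTG motif bound by basic helix-loop-helix factors, and coordinates are those of GRCm38.p6.

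Fbxw24, chr9:109626060-109626309: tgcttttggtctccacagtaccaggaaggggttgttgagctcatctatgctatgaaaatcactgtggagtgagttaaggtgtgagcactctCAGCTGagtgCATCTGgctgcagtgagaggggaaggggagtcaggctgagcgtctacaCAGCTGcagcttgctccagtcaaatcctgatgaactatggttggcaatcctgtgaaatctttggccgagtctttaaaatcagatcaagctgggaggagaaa

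Fbxw18, chr9:109702701-109702950: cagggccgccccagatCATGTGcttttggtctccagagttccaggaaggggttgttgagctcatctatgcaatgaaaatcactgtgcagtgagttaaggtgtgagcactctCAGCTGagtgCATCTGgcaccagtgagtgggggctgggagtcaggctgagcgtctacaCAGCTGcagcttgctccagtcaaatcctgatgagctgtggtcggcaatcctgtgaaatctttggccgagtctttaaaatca

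Fbxw16, chr9:109449141-109449390: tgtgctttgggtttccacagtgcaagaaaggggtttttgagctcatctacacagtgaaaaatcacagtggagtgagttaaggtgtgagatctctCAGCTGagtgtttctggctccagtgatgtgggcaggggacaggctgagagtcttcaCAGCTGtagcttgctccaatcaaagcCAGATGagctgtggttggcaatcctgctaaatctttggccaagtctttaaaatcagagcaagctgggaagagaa

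Fbxw20, chr9:109234755-109235004: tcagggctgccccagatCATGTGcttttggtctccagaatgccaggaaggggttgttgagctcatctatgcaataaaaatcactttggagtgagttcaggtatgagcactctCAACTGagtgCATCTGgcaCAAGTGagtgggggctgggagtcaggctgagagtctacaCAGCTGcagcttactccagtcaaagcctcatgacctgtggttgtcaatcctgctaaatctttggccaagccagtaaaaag

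All 9 array promoters held a match to CANNTG, against 66.0% of 27025 promoters of all genes and 33 of 46 promoters of the other members. The motif is a palindrome, so its search covers both strands. The array promoters held at least 2 and at most 5 matches each, and the number per promoter was not compared with other genes. The form CAGCTG, a subset of CANNTG singled out after the sequences were seen, was present in 9 of 9 array promoters, against 12.8% of all promoters and 9 of 46 of the other members. It occurred 2 times in 8 promoters and 1 time in that of Fbxw20. In Fbxw24 the 2 copies began at positions −159 and −101 from the start site, in Fbxw16 at −156 and −100, in Fbxw18 at −139 and −81 and in Fbxw19 at −183 and −125. Neither TAATTG nor TAATTA, the letters of the NOBOX element, was found on either strand in the array promoters, where 11.5% of all promoters held 1 of them, and TATAAA was found in none, against 12.97%. CCAAT was present in 1 of 9, against 34.5%. As near copies the 9 sequences are not independent, and a match of letters is a description of sequence only.

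All 11 analysed Fbxw genes of the array had a higher level in the aged library, also under every other scaling, except that 1 of them, Fbxw21, lay just below equality after a correction for length and GC content. Of the 11, 9 were called higher and none lower, where 27.9% of all 10211 genes above the floor were called higher and 10.6% lower, and 66.4% had a ratio above 1. For 8 of the 11 the whole interval lay above 2-fold, against 18% of all genes. The median log2 ratio of the array was 1.33, and that of all genes 0.43. By family the products are WD40-repeat receptors.

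Fbxw24 (ENSMUSG00000062275), the most abundant of them, had 773 CPM in the young and 2013 CPM in the aged library (15063 and 37433 counts), 2.60-fold higher (95% interval 2.55 to 2.65). Fbxw22 had 357 and 1046 CPM and was 2.93-fold higher (2.85 to 3.01). Fbxw18 had 353 and 892 CPM, 2.52-fold higher (2.45 to 2.59). These were the 3 most abundant members of the aged library, whereas in the young library Fbxl6 ranked first. Fbxw28 had 156 and 383 CPM, 2.45-fold higher (2.35 to 2.56), and Fbxw19 248 and 511 CPM, 2.06-fold higher with an interval of 1.99 to 2.14 that reaches below 2-fold. The next group was lower in level and more varied in ratio. Fbxw16 had 27.1 and 126 CPM (528 and 2349 counts), the highest ratio of the array at 4.66-fold (4.24 to 5.13). Fbxw20 followed with 44.5 and 205 CPM, 4.60-fold higher (4.27 to 4.96). The intervals of these 2 genes overlap each other and no other interval of the array. Fbxw15 had 65.8 and 188 CPM, 2.86-fold higher (2.68 to 3.05), and Fbxw26 33.6 and 77.5 CPM, 2.31-fold higher (2.10 to 2.54). The 2 members within 2-fold were Fbxw21, with 49.4 and 80.2 CPM, and Fbxw13, with 8.47 and 15.8 CPM. Their ratios were 1.62 (1.495 to 1.76) and 1.87 (1.54 to 2.27).

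**Figure D1:**
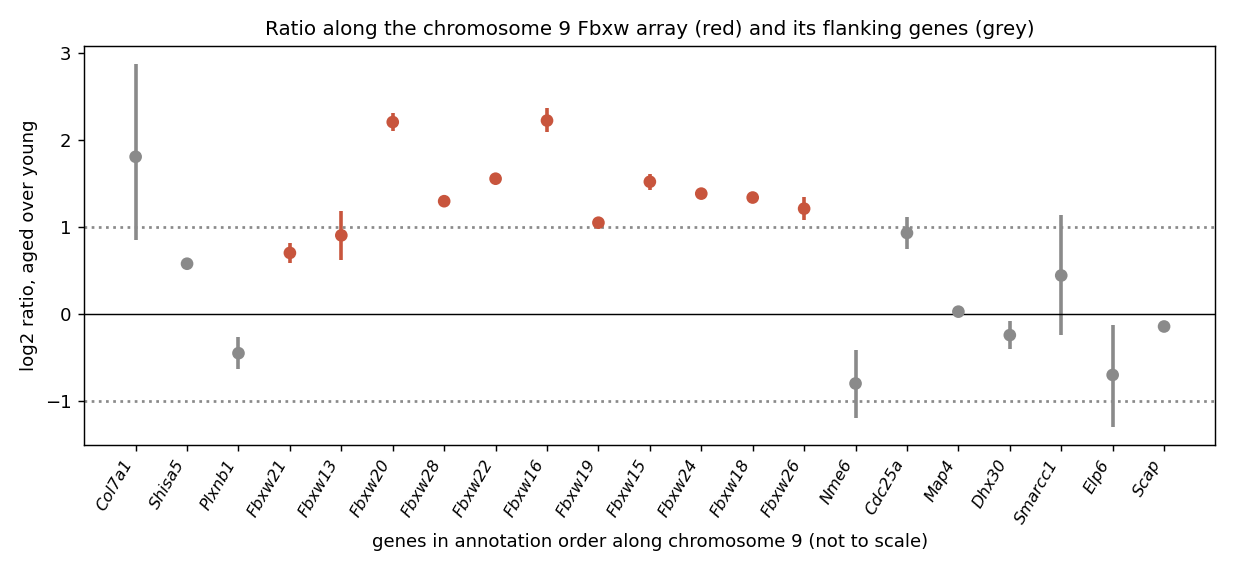
Log2 ratio of aged over young, with 95% counting intervals, for the 11 Fbxw genes of the chromosome 9 array (red) and the flanking protein-coding genes above the floor (grey), in annotation order and not to scale. All 11 array genes lie above 0, between 0.70 and 2.22, while the 10 flanking genes lie between −0.80 and 1.80.

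The genes beside the array had ratios on both sides of 1. Of 10 protein-coding genes on each side, 10 of the 20 reached the floor, with a median log2 ratio of −0.06, and 1 of these 10 was called higher. That gene was Col7a1, with 12 and 40 counts. Below the floor, Atrip (6 and 26 counts), Trex1 (2 and 15), Pfkfb4 (0 and 13) and Ccdc51 (0 and 13) had more counts in the aged library. So did Uqcrc1 (10 and 12) and Cspg5 (0 and 2), while Spink8 (2 and 0) had fewer. Among the other genes of chromosome 9, 541 reached the floor and had a median of 0.48, with 26.4% called higher. The flanking genes were chosen by their place after the data were seen, and they were not matched to the array in GC content.

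How far the array stood above other genes depended on the scaling and on base composition. All 11 ratios stayed above 1 under TMM scaling (a trimmed mean of log ratios), centring on the median gene, and library totals without the 100 most abundant genes, which lowered every log2 ratio by 0.37, 0.43 and 0.29. Called higher were then 5, 4 and 7 of the 11, against 17.2%, 16% and 19.5% of all genes. The transcripts of the array had GC contents of 43.5% to 45.7%, and in the data as a whole genes of low GC content had higher ratios. The 156 other genes above the floor within the array's range of GC content and length (1483 to 2242 bases) had a median log2 ratio of 0.88, and 42.3% of them were called higher. When the median of genes in the same bin of length and GC content was subtracted from each log2 ratio, 10 of the 11 stayed above 1, Fbxw21 lay just below it at −0.11 on the log2 scale, and Fbxw16 (1.39) and Fbxw20 (1.38) were the 2 still called higher. These 2 are 18.2% of the array, near the 13.6% of all genes called higher after this correction. The median of the array was then 0.51.

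Near copies can share reads. Of the 50-base windows of each array transcript, a median of 89.3% was found in no other annotated gene on either strand. The lowest shares were 34.0% for Fbxw28, whose windows were shared mostly with Fbxw14, and 73.3% for Fbxw16, shared mostly with Gm42494. With windows of 35 bases the shares were 23.7% for Fbxw28 and 57.1% for Fbxw16. They were 72.0% to 79.3% for Fbxw15, Fbxw22, Fbxw19, Fbxw26 and Fbxw20, and higher for the other array genes. The counts of Fbxw28 and Fbxw16 are therefore the most uncertain, and those of the other array genes are not free of shared reads. The median log2 ratio of the array was 1.33 also without Fbxw28 and Fbxw16.

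Outside the array lay 9 Fbxw members, and 8 of them reached the floor. Fbxw4 (ENSMUSG00000040913, chromosome 19) was the member with the lowest ratio of all 54, with 216 CPM in the young and 42.3 CPM in the aged library (4206 and 787 counts), 5.10-fold lower (4.73 to 5.51). Fbxw4, also called dactylin, is known from limb malformation. Of its 50-base windows, 72.2% were unique to it, and the others were shared mostly with Gm17018. Fbxw2 was the 1 gene of this group called higher, with 3.39 and 10.8 CPM (66 and 200 counts), 3.17-fold (2.39 to 4.26). Fbxw7, the receptor for cyclin E and Myc, had 26.0 and 36.2 CPM, a ratio of 1.39 (1.24 to 1.57). Fbxw11, the second β-TrCP, which binds phosphorylated β-catenin and IκB, had 68.7 and 127 CPM, a ratio of 1.85 (1.73 to 1.98). Fbxw5, Fbxw9 and Fbxw8, which works with the cullin Cul7, had ratios of 1.06, 1.09 and 0.729 (of the windows of Fbxw8, 65.6% were unique), and Fbxw17 on chromosome 13 had 1.69 from 54 and 87 counts. Fbxw10 had 1 and 0 counts.

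**Figure D2:**
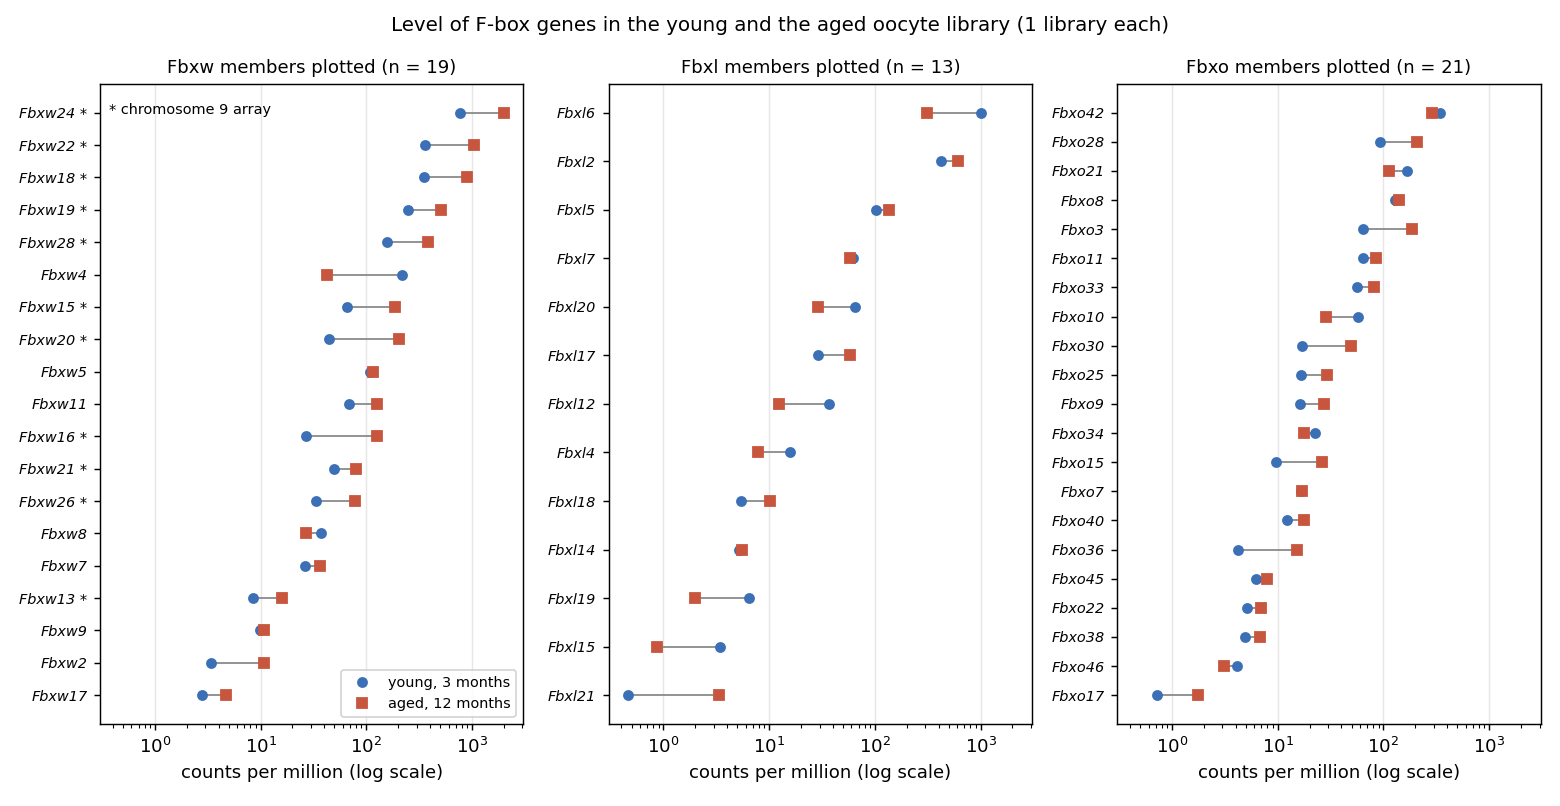
Level of the F-box genes above the floor that are reported here in the young library (blue circles) and the aged library (red squares), in CPM on a log axis, by class and ordered by mean level, 1 library each. The chromosome 9 genes (asterisks) have red squares to the right of blue circles throughout, while Fbxw4 and Fbxl6 show the reverse, with 216 against 42.3 CPM and 1019 against 311 CPM.

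The leucine-rich-repeat class held 6 of the 7 members called lower. Of the 14 Fbxl members above the floor, 6 were called lower and 2 higher, where 10.6% and 27.9% of all genes were. The counting interval lay beyond 2-fold lower for 5, against 6.35% of all genes, and beyond 2-fold higher for 1. The same 6 genes were called lower after the bin correction for length and GC content, where 14.99% of all genes were. TMM scaling, median centring and totals without the 100 most abundant genes lower every log2 ratio. They could therefore not undo a lower call. The summed level of the class was 1782 CPM in the young and 1253 CPM in the aged library, but without Fbxl6 it was 763 and 941 CPM, so the direction of the sum rests on that gene. The median log2 ratio was −0.01, with 7 of 14 ratios above 1, and it was 0.18 without the members under 80% unique windows.

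Fbxl6 (ENSMUSG00000022559, chromosome 15) accounted for most of the class in the young library. It had 1019 CPM in the young and 311 CPM in the aged library (19846 and 5790 counts), 3.27-fold lower (3.18 to 3.37), and was the most abundant member of any class in the young library, with 18.6% of the member counts. It was seventh in the aged library with 3.65%. Fbxl12 had 37.2 and 12.3 CPM, 3.02-fold lower (2.60 to 3.52). Only 55.7% of its 50-base windows were unique, the rest being shared mostly with Ubl5. Fbxl20, known as Scrapper at synapses, had 64.4 and 28.8 CPM, 2.23-fold lower (2.02 to 2.48). Fbxl19, a CXXC-domain protein that binds CpG islands, had 125 and 37 counts, 3.23-fold lower (2.22 to 4.79). Fbxl15 had 67 and 16 counts, 3.999-fold lower (2.29 to 7.39), with 76.9% unique windows and the rest shared mostly with Cuedc2. Fbxl4, a mitochondrial protein that restrains mitophagy, had 15.7 and 7.80 CPM, 2.01-fold lower with an interval of 1.64 to 2.47.

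Other leucine-rich-repeat receptors were higher or within 2-fold. Fbxl21, which binds the cryptochromes of the circadian clock, had 9 and 62 counts, 7.21-fold higher (3.57 to 16.5), the highest ratio of the 54 members but from few counts. Fbxl17, which removes mispaired BTB-domain dimers, had 28.8 and 58.5 CPM, 2.03-fold higher (1.84 to 2.26). Fbxl2, second in the class, had 420 and 606 CPM, a ratio of 1.44 (1.40 to 1.48). Fbxl5, the iron-sensing receptor for the iron regulatory protein Ireb2, had 102 and 136 CPM, a ratio of 1.34 (1.26 to 1.42), and Fbxl7, which acts on Aurora A, 62.0 and 57.9 CPM, a ratio of 0.934. Fbxl18 and Fbxl14 had ratios of 1.87 and 1.06. Below the floor lay Fbxl13 (20 and 8 counts), Fbxl8 (19 and 3), Fbxl22 (12 and 1), Fbxl16 (6 and 0) and Fbxl12os (0 and 1).

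**Figure D3:**
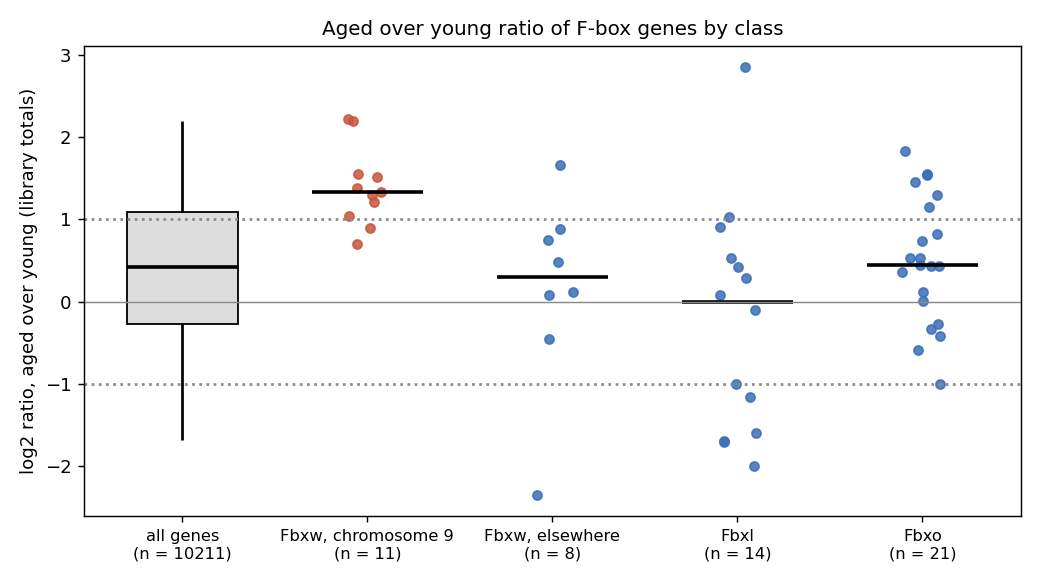
Log2 ratio of aged over young, scaled to library totals, for the F-box genes above the floor by class (points, with a bar at each median), beside the median, quartiles and 5th to 95th percentiles of all 10211 genes. Array genes all lie above 0 with a median of 1.33, and 6 of the 14 Fbxl genes lie below −1.

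The Fbxo class had a median close to that of all genes. Of its 21 members above the floor, 6 were called higher and none lower, against 27.9% and 10.6% of all genes, and the median log2 ratio was 0.45 against 0.43. The class summed to 1113 CPM in the young and 1356 CPM in the aged library. With ratios centred on the median gene 4 were called higher and 2 lower (Fbxo10 and Fbxo21), against 16% and 17.3% of all genes.

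The abundant Fbxo genes were mostly within 2-fold. Fbxo42, a receptor known for p53, had 344 CPM in the young and 286 CPM in the aged library, a ratio of 0.832 (0.802 to 0.862). Fbxo21 had 168 and 112 CPM, a ratio of 0.667 (0.631 to 0.705). Fbxo8, which carries a Sec7 domain, had 129.5 and 140.5 CPM, a ratio of 1.08 (1.03 to 1.15). Fbxo11, the receptor for Bcl6, had 63.4 and 85.7 CPM, a ratio of 1.35 (1.25 to 1.46), and Fbxo33 56.7 and 81.7 CPM, a ratio of 1.44 (1.33 to 1.56). Fbxo10, known for acting on Bcl2, had 56.9 and 28.5 CPM, with a log2 ratio of −0.997 that lay just inside the 2-fold limit.

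The 6 Fbxo genes called higher were spread over a wide range of levels. Fbxo28 had 93.6 and 207 CPM, 2.22-fold higher (2.10 to 2.34). Fbxo3, which is known to target the receptor Fbxl2, had 64.1 and 186 CPM, 2.91-fold higher (2.73 to 3.11). Fbxo30 had 17.0 and 49.7 CPM, 2.92-fold higher (2.58 to 3.32). Fbxo15, a gene used to mark pluripotent cells, had 9.60 and 26.4 CPM, 2.75-fold higher (2.32 to 3.27). Fbxo36 had 82 and 280 counts and the highest ratio of the class, 3.58-fold (2.79 to 4.63). Fbxo17, the sixth, had 14 and 33 counts, with an interval of 1.29 to 4.99 that reaches below 2-fold. The first 5 of these also had an interval beyond 2-fold. After the bin correction for length and GC content, Fbxo36 and Fbxo17 were the 2 still called higher, with log2 values of 1.69 and 1.32, and Fbxo8 was called lower at −1.04. The 2 are 9.52% of the class, where 13.6% of all genes were called higher and 14.99% lower.

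The other Fbxo genes above the floor had ratios between 0.750 for Fbxo46 and 1.76 for Fbxo25. Fbxo7, which takes part in mitophagy with Parkin, had 326 and 314 counts, a ratio of 1.01. Those below the floor held 8 counts or fewer in each library. They included Fbxo32, the muscle atrophy gene atrogin-1, with 3 and 8 counts, Fbxo31 with 2 and 8 and Fbxo4 with 0 and 2, both of the latter being receptors for cyclin D1. Also there were Fbxo41 (6 and 6), Fbxo39 (4 and 7), Fbxo27 (4 and 0), Fbxo16 (3 and 0) and Fbxo47 (2 and 1).

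Over the 54 members together, 18 were called higher (33.3%), 7 lower (12.96%) and 29 neither, against 27.9% called higher and 10.6% lower, or 38.4% in either direction, among all genes. These shares lie near the background, and the median log2 ratio of 0.53 lay near that of all genes, 0.43. Of the members called, 72.0% were higher with library totals. That share was 57.9% with TMM scaling, 52.6% with median centring and 63.6% without the 100 most abundant genes, the numbers being 11 and 8, 10 and 9, and 14 and 8. Among all genes called, the shares were 72.5%, 51.3%, 48.0% and 57.2% in the same order, near those of the members. The scalings other than library totals lower every log2 ratio, so a lower call with library totals holds under each of them by arithmetic. All 7 members called lower (Fbxw4 and the 6 Fbxl genes) were also called lower after the bin correction, where 7 were higher and 8 lower. Those are 12.96% and 14.8% of the members, close to the 13.6% and 14.99% of all genes. Outside the array the shares were 20.9% higher and 16.3% lower over 43 members.

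**Figure D4:**
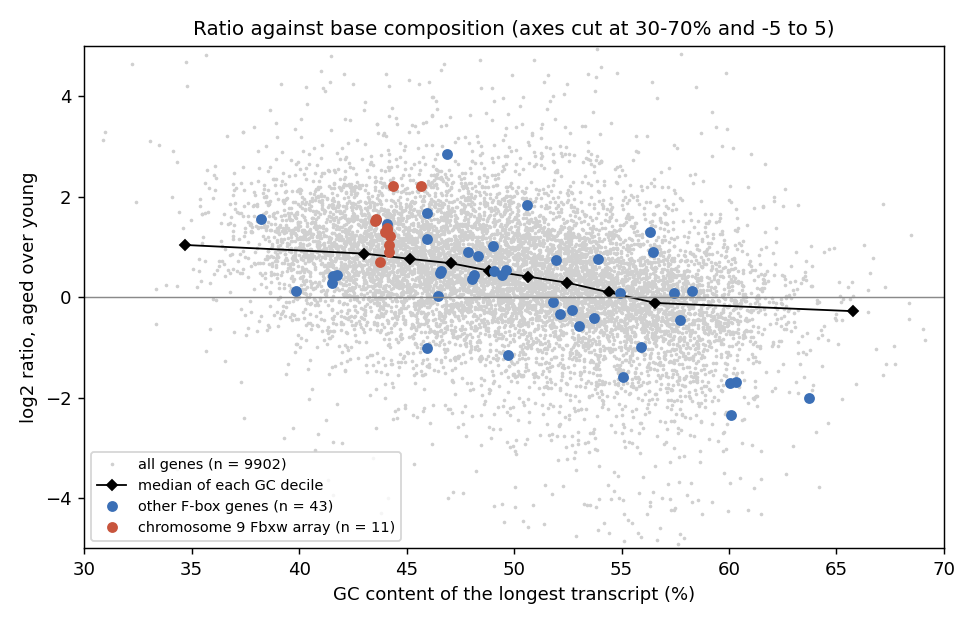
Log2 ratio of aged over young against the GC content of each gene's longest transcript, for 9902 genes (grey), the median of each GC decile (black diamonds at the middle of the decile's range), the 11 array genes (red) and the 43 other F-box genes (blue). The array sits in a narrow range of GC content from 43.5% to 45.7%, and the members called lower include 4 above 60%.

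Members of higher GC content had lower ratios, as in all genes. Spearman's rho between GC content and log2 ratio was −0.59 over the 54 members, −0.53 over the 43 outside the array and −0.40 over 9902 genes. All these points come from the same 2 libraries, and array genes share sequence. The 4 members called lower with the highest GC content were Fbxl15 (63.7%), Fbxl19 (60.3%), Fbxw4 (60.1%) and Fbxl6 (60.1%). After the bin correction they had log2 ratios of −1.56, −1.41, −2.18 and −1.54. The part of base composition in any single ratio was not tested.

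The order of levels per kilobase of transcript changed between the libraries. In the young library Fbxl6 was first with 596 CPM per kilobase, followed by Fbxw24 (519.8), Fbxw18 (233), Fbxw22 (194) and Fbxw19 (167). In the aged library the first 5 were all array genes, namely Fbxw24 (1353 CPM per kilobase), Fbxw18 (587), Fbxw22 (569.8), Fbxw19 (345) and Fbxw28 (228). Fbxl6 was sixth with 182 and Fbxl2 seventh with 175. Fbxw4 went from place 7 to place 23. Since cDNA was primed at the poly(A) tail, reads may not cover a transcript evenly, so a level per length is approximate.

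The rest of the ligase was examined with lists of the SCF pathway. For reading the counts below, 27.9% of all genes were called higher and 10.6% lower, or 16% and 17.3% after median centring, or 13.6% and 14.99% after the length and GC correction. Of the 3 core genes above the floor, 2 were called higher. Skp1a, the adaptor that binds the F-box, had 98.1 CPM in the young and 417 CPM in the aged library, 4.26-fold higher (4.05 to 4.48). Rbx1, the RING subunit, had 103 and 292 CPM, 2.83-fold higher (2.69 to 2.98). Cul1, the scaffold, had 1120 and 2100 CPM (21809 and 39049 counts), a ratio of 1.87 (1.84 to 1.91). Rnf7, the other RING protein of the list, had 23 and 15 counts. Skp1a and Rbx1 were called higher also after median centring, but after the length and GC correction Skp1a alone was, with log2 ratios of 1.20 for Skp1a, 0.80 for Rbx1 and 0 for Cul1.

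Cullins are switched on by the attachment of Nedd8, and Cand1 exchanges their receptors. Of 13 genes for this above the floor 6 were called higher and none lower, or 2 and 3 after median centring and 1 and 2 after the length and GC correction. The median log2 ratio was 0.98, and 0.14 with that correction. Dcun1d4, a Nedd8 ligase subunit, had 45 and 159 counts, 3.70-fold higher, and Nedd8 itself 74.3 and 184 CPM, 2.48-fold higher. Rbx1, which is also in this list, was the remaining member of the 3 with the largest difference. Of the 10 genes of the COP9 signalosome, which removes Nedd8, 5 were called higher and 1 lower, or 4 and 2 after median centring and likewise after the length and GC correction. The median was 1.04, and 0.85 with that correction. Cops2 had 83 and 380 counts, 4.79-fold higher, Cops3 78 and 289, 3.88-fold higher, and Cops7b 91 and 295, 3.39-fold higher. Its paralogue Cops7a was the 1 gene lower, with 355 and 108 counts, 3.14-fold.

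Enzymes and partners of SCF did not share one direction. Of 14 above the floor, 2 were called higher and 2 lower, or 1 and 2 after median centring, and the median was 0.25, or −0.54 with the length and GC correction. The ubiquitin-conjugating enzyme gene Ube2g1 had 40.3 and 199 CPM, 4.95-fold higher, while Cks2, a small Cdk-binding protein, had 64.9 and 14.1 CPM, 4.59-fold lower, and Sugt1, a Skp1-binding co-chaperone, had 252 and 517 counts, 2.15-fold higher.  Of 14 genes of other cullins and their adaptors, 4 were called higher and 1 lower, or 3 and 3 after median centring and 1 and 3 after the length and GC correction. With library totals these are 28.6% and 7.14%, near the shares of all genes, and the median was 0.40, or −0.32 with that correction. Cul3, Cul4b and Cul2 were higher by 4.36-fold (115 and 479 counts), 4.02-fold (518 and 1987) and 2.98-fold (97 and 276).

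**Figure D5:**
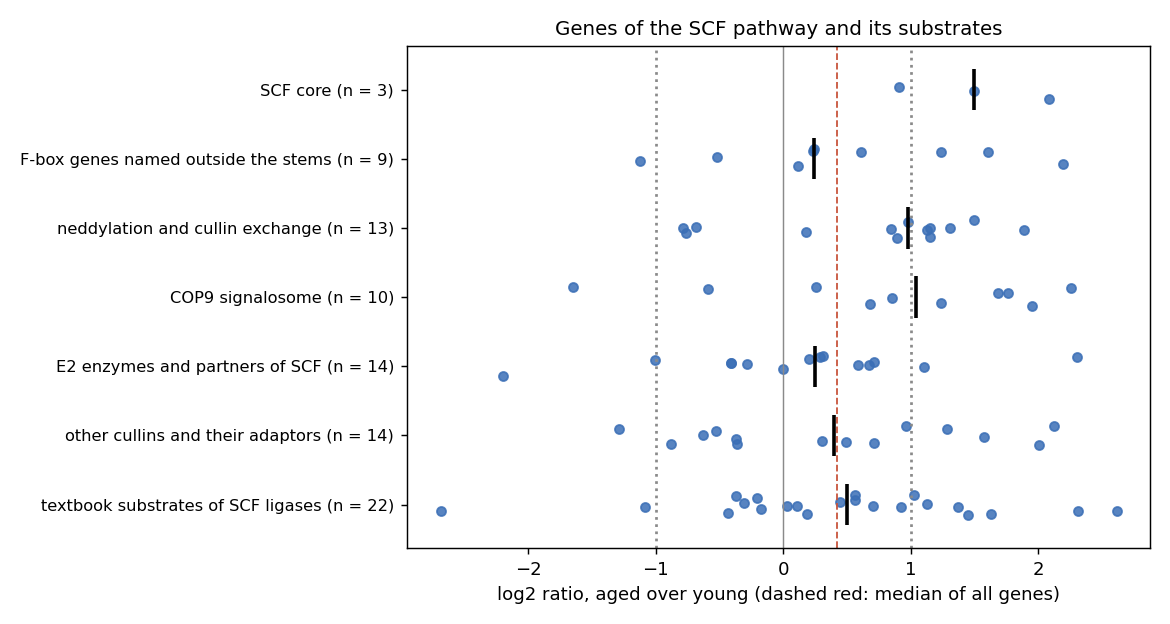
Log2 ratio of aged over young for genes above the floor in 7 lists around the SCF ligase, with a bar at each list's median and a dashed line at the median of all genes (0.43). The SCF core genes all lie above the dashed line and have the highest median, while every other list spreads to both sides of the line. The COP9 signalosome and neddylation lists have medians of 1.04 and 0.98, with ranges of −1.65 to 2.26 and −0.78 to 1.89. After the length and GC correction (not plotted) these 2 medians were 0.85 and 0.14.

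Some F-box proteins carry other names, and the list of these also held the excluded Emi genes Fbxo5 and Fbxo43. Skp2, the receptor for the Cdk inhibitor p27, had 139 and 144 counts, a ratio of 1.08. Btrc, the first β-TrCP, had 219 and 246 counts, a ratio of 1.18, and Ccnf, which encodes cyclin F, 53 and 60 counts, a ratio of 1.19. Of the 9 in this list above the floor, 3 were called higher and 1 lower, or 2 and 1 after median centring. With library totals these are 33.3% and 11.1%, near the shares of all genes, and the median was 0.25. Lmo7 was highest with 526 and 2307 counts, 4.59-fold, followed by Fbxo5 (Emi1) with 99 and 288 counts, 3.05-fold higher, and Kdm2b, a CpG-island demethylase with an F-box, with 55 and 124 counts, 2.36-fold higher. Fbxo43 (Emi2), which holds the egg at MII, had 236 and 165 CPM, a ratio of 0.698.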

How the data were processed

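RNA of 18 pooled MII oocytes per age was reverse transcribed with an oligo(dT) primer, amplified by PCR in rounds of 18 and 14 cycles and read on a SOLiD sequencer, per the labels' protocols. The authors deposited whole-number counts per Ensembl gene for both libraries. The build was mm9 per the submitters' processing notes. Aligner, counting program and use of strand are not stated in the labels or the file header, so genes with near copies or overlaps are uncertain.

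Symbols came from GENCODE mouse release 21, which matched 85.5% of 36227 rows and 93.7% of the 18364 rows with a count. Length and GC content are those of the longest protein-coding transcript (or the longest of any kind where none codes), known for 97.0% of genes above the floor, and no coordinates were carried between builds. The 11 array members are the Fbxw members that the deposited table places on chromosome 9. Exact windows of 50 and of 35 bases were searched on both strands in all transcripts. Transcripts and promoters were aligned pairwise (global, end gaps left out), and promoters and motifs were read from RefSeq's 250 bases before each start site.

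Counts were scaled to library totals, with TMM factors (edgeR 4.0.16, R 4.3.3) as an alternative and no edgeR test. A floor of 20 mean counts, a fold of 2 and exact 95% intervals were used. The interval code was tested on simulated data. Other work was done in Python 3.11.15 with scipy 1.17.1, pandas 2.3.3 and Biopython 1.88. Genes named are the up to 8 most abundant members of each class, the members with an interval beyond 2-fold, and from each pathway list the up to 3 with the largest difference beside Skp1a, Cul1, Rbx1, Skp2, Btrc and Ccnf. Others are named to account for the members, and 1 member, included in all counts and medians, is not reported here. Members and lists were chosen with earlier results of these data known. Alternatives were other scalings, floors, folds, 5 added counts, a correction by 10 bins of length and 10 of GC content, and leaving out the array. The comparison with the 200 genes nearest in mean count, the leaving out of members with under 80% unique windows, the Fbxl sum without Fbxl6, the flanking genes and CAGCTG were added after the data were seen.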

Additional observations from a re-analysis of the deposited data

How the results depend on the processing

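With 1 library per age no replicate could be left out and no paired analysis was possible. Of 54 members above the floor, 18 were called higher with library totals (33.3%, against 27.9% of all genes). This count was 11 with TMM scaling, 10 with median centring and 7 after the length and GC correction. These are 20.4%, 18.5% and 12.96% of the members, near the 17.2%, 16.0% and 13.6% of all genes. The count was 10 relative to the 200 genes nearest in mean count, where no share of all genes is given. Without the array it was 9 of 43 (20.9%). Without the 7 members under 80% unique windows, 47 were left, the higher count was 16 and the lower count went from 7 to 4. Unique windows were counted for members only, so no share of all genes stands beside these. The members left out in this way included Fbxw4, Fbxl12 and Fbxl15, which were called lower. The members' median log2 ratio of 0.53 became 0.15 (TMM), 0.10 (median centring), 0.24 (totals without the 100 most abundant genes), 0.066 (length and GC correction) and 0.063 (nearest genes). The Fbxo median of 0.45 became −0.13 with the length and GC correction and −0.0050 relative to the nearest genes. The Fbxw median of 1.05 became 0.32 with that correction and 0.30 without the array, and the array's own median of 1.33 became 0.51 with it.

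The summed level of the members, 1.55-fold higher, was 1.38-fold without the most abundant member, Fbxw24, 1.27-fold under totals without the 100 most abundant genes, and 0.886 without the array. The summed Fbxl level, with a ratio of 0.703, had one of 1.23 without Fbxl6. The pathway lists held 3, 9, 13, 10, 14, 14 and 22 genes above the floor, with Rbx1 shared by the core and neddylation lists. Over these genes 28 were called higher and 7 lower, where 27.9% and 10.6% of all genes were. Under TMM scaling the lists had 17 and 12, and under median centring 17 and 13. After the length and GC correction they had 13 and 11, and relative to the nearest genes 18 and 12. Among all genes the shares were 17.2% and 16.3% (TMM), 16.0% and 17.3% (median centring) and 13.6% and 14.99% (length and GC correction). No share of all genes is given for the nearest genes or for a floor of 100 counts. With that floor the lower count of the lists was 2. It was 3 where the interval had to lie beyond 2-fold, against 6.35% of all genes. The lists' median of 0.57 became 0.20, 0.15, −0.14 and 0.068 under the same 4 settings in that order. No named member called higher or lower changed direction after the length and GC correction or relative to the 200 genes nearest in mean count. The other settings could not show such a change. The scalings moved every ratio by less than the 2-fold that a call needs, a floor changes no ratio, and 5 added counts draw ratios toward 1. The cause of the scaling's effect on single genes was not tested. Members below the floor, 14 in all, allow no statement about age at this depth.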

Other observations

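Known substrates of SCF ligases were listed beside their receptors. Of 22 above the floor, 7 were called higher with age and 2 lower, or 4 and 2 after median centring. After the length and GC correction 3 were higher and 1 lower, against 13.6% and 14.99% of all genes, with a median log2 ratio of −0.14. With library totals the 7 and 2 are 31.8% and 9.09%, near the 27.9% and 10.6% of all genes. The median log2 ratio was then 0.50, against 0.43 for all genes. The widest differences were in Snai1, a transcriptional repressor, with 54 and 8 counts, 6.45-fold lower, Ccnd1, which encodes cyclin D1, with 14 and 82 counts, 6.13-fold higher, and Mcl1, a survival factor bound by Fbxw7, with 23 and 109 counts, 4.96-fold higher. Genes outside the naming rule, chosen after their values were seen, are given here beside their receptors. Cry1, bound by Fbxl21, had 181 and 493 CPM, 2.73-fold higher. Cry2 had 25 and 0 counts and lay below the floor, so no call was made for it. Cpeb1, a regulator of stored mRNA that β-TrCP marks for destruction, had 70.2 and 181 CPM, 2.58-fold higher.

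The letters TTTTAT or TTTTAAT, forms of the cytoplasmic polyadenylation element, were looked for in the last 100 bases of each gene's longest transcript on the sense strand. They were present in 9 of the 54 members above the floor (16.7%) and in 19.7% of 9902 genes. None of the 11 array transcripts held either form, while 21.2% of the 156 other genes of like GC content and length did, and 4 of the 8 Fbxw transcripts outside the array did. As near copies the 11 array transcripts are not independent. Annotated ends may differ from those used in oocytes, which was not tested.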
